A study of Mus musculus with 6 samples.

Results

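Heat shock followed by LPS was compared with no treatment in primary mouse embryo fibroblasts, the connective tissue cells that grow out of a dissociated embryo. The cultures came from 2 embryos of outbred ICR mice at embryonic day 15.5 and were kept at 37 °C in medium with serum. The Control group was left untreated. The HS+LPS group was heated to 42 °C for 1 h and then given lipopolysaccharide (LPS), a glycolipid of the bacterial outer membrane, for 4 h. The LPS group received E. coli LPS at 1 μg/ml for 4 h without heat, and the labels do not restate the dose for HS+LPS. Each group held 1 array from each of the 2 cultures, so the comparison rested on 4 of the 6 arrays, set against each other within a culture. Its members were all genes with a probe set that carried a single gene symbol, each represented by its brightest probe set, and 12917 genes were bright enough to be tested. None of the 6 arrays of the series came from cells heated without LPS. In HS+LPS against Control the contributions of heat and of LPS therefore cannot be told apart. The LPS arrays of the same cultures are given beside the results for that reason.

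Heat unfolds proteins, and cells answer by releasing heat shock factor 1 (HSF1), which trimerises, binds inverted repeats of the letters GAA and TTC in promoters, and switches on chaperones. The HSP70 proteins bind unfolded chains, the DnaJ proteins deliver those chains to them, HSP110 proteins reload them with nucleotide, and small heat shock proteins hold chains until they can be refolded. Stress also activates MAP kinases, which induce immediate early genes such as Fos, Egr1 and Atf3 together with the phosphatases that switch the kinases off. LPS acts through Toll-like receptor 4 on NF-kB and interferon regulatory factors, and fibroblasts respond with chemokines, cytokines and interferon-induced genes.

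In HS+LPS, 658 genes rose and 1561 fell against Control (limma with the culture as a block and an intensity trend, Benjamini-Hochberg adjusted p under 0.05), which was 5.09% and 12.1% of the genes tested. The increases were the larger ones: 239 genes rose and 238 fell by more than 1 on the log2 scale, and 62 rose and 11 fell by more than 2. The median log2 difference over all genes was -0.095. Counts of a gene list below are read against these 2 shares, and a share near them says nothing about the list. All 2219 called genes moved the same way in both cultures, which passing the threshold with 2 cultures nearly requires. Over all genes tested, the log2 differences of the 2 cultures correlated at 0.58. Of 1293 called genes with more than 1 tested probe set, 288 had another of opposite sign. Directions below are therefore those of the brightest probe set. Differences are on the scale of log2(signal + 3.37), which understates the change of dim genes. They compare cultures, so fewer cells of a type and less RNA per cell cannot be told apart.

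The number of calls depended on the model. Without the culture as a block, 22 genes rose and 1 fell (0.17% and 0.00774% of those tested), and all 23 were also among the 2219. At an unadjusted p under 0.05 that fit gave 579 and 1517. Without the intensity trend, and with the block, 14 rose and 4 fell. Of the 23 genes, 20 are described below: Arc, Hspa1a, Atf3, Dnaja4, P2rx7, Hspa1b, Gm11563, Nr4a1, Dnajb1, Hsph1, Zc3h12a, Bag3, Egr1, Nfkbiz, Hspb8, Junb, Srxn1, Mdm2 and Dnaja1, which rose, and Snai2, which fell. Among these 20, Gm11563, Nr4a1, Hsph1, Bag3, Hspb8, Junb, Srxn1, Mdm2, Dnaja1 and Snai2 lost their calls without the intensity trend. The other 3 of the 23, Swt1, Sphk1 and Zfp703, rose and are named here after their values were seen. Every other call in HS+LPS against Control given below was lost without the block, and all p-values below are adjusted p from the fit with it. They rest on 2 cultures. The spread behind each SE and p-value comes from how the gene's differences among the 3 groups vary between cultures. Limma draws that spread toward the spread of genes of similar signal, with a median of 6.73 prior degrees of freedom against 2 residual ones. An SE is therefore not the variation of that gene alone. The difference in level between the cultures is taken out by the block. Leaving out the Control array of culture 2 left 269 genes called higher and 285 lower, and leaving out that of culture 1 left 454 and 606.

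**Figure D1:**
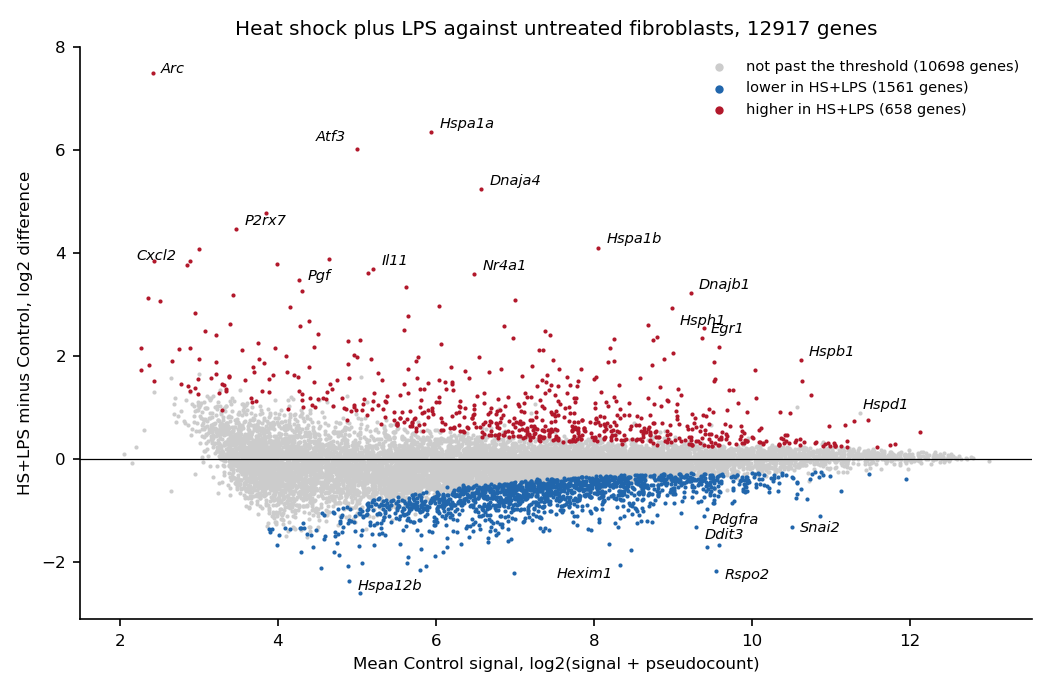
Log2 difference between HS+LPS and Control (vertical axis) against the mean Control signal on the log2(signal + pseudocount) scale (horizontal axis), 1 point per gene tested. Red points are the 658 genes called higher, blue points the 1561 called lower and grey points the others; Arc, Hspa1a, Atf3 and Dnaja4 lie highest, and the genes that fell spread less far from 0 than those that rose.

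The arrays were alike in overall signal, with medians between 11.9 and 14.4. A noise level was set on each array at its brightest probe set for Bacillus subtilis genes, and it lay between 6.004 and 7.67. Of the genes called higher, 20 were at or under it on both Control arrays, and 20 of those called lower were at or under it on both HS+LPS arrays; folds are then given as at least the bright group over the noise. The brightest probe set on each array read 6931 to 8434, and genes close to that have little room to rise. Fibroblast markers were bright, such as Col1a1, a collagen chain, at 3830.1 and 5119 in Control and 4140.4 and 4608 in HS+LPS. Of 12 fibroblast markers 2 were called, Pdgfra and Pdgfrb, both lower. Of the tested markers of other cells, 1 of 7 for epithelium (Krt19), 1 of 5 for skeletal muscle (Des), 2 of 10 for nerve and glia (Map2 and Fabp7) and 1 of 8 for fat and skeletal lineages (Sox9) were called, all higher. Limma called 0 of 11 markers of leukocytes, 0 of 6 of endothelium and 0 of 4 of blood cells, and at an unadjusted p under 0.05 it gave 1 lower, 1 higher and 0 of either.

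The cytosolic HSP70 chaperones showed the clearest change. Hspa1a, the classic heat-inducible HSP70, read 61.0 and 54.8 on the Control arrays of cultures 1 and 2 and 5029 and 4939.6 on the HS+LPS arrays. The HS+LPS arrays lay far above Control and close to each other, an 81.5-fold increase (log2 difference 6.35, SE 0.11, limma adjusted p = 2.31e-08). With LPS alone Hspa1a read 56.8 and 68.1, and LPS against Control did not pass (adjusted p = 0.743). Its neighbour Hspa1b encodes almost the same protein and went from 233 and 292 to 4530.4 and 4585 (log2 difference 4.11, SE 0.099, limma adjusted p = 8.02e-08). The 2 genes are near-identical copies, and how much signal each probe set takes from the other gene is uncertain. Hsph1, the HSP110 that reloads HSP70, read 601 and 407 in Control and 3550.0 and 4064 in HS+LPS, with no overlap (log2 difference 2.93, SE 0.16).

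The constitutive members moved less. Hspa8, the HSP70 made without stress, read 4674 and 4276 in Control and 6547 and 6361 in HS+LPS (log2 difference 0.53, SE 0.07, limma adjusted p = 0.00209). Its 4 tested probe sets ranged from 0.40 to 4.27, and the one given here, the brightest, read close to the brightest signals of the arrays. Hspa4l, an HSP110 relative, rose by 1.00. Of the 11 tested HSP70 and HSP110 genes, 6 rose, 2 fell and 3 did not pass. Those that fell were Hspa14, a ribosome-associated HSP70 (log2 difference -0.52), and Hspa12b, a distant relative. Hspa12b read 19.7 and 33.5 in Control and 2.37 and 2.13, under the noise level, in HS+LPS, a fall of at least 3.52-fold. Without the culture block 3 of the 11 were called, Hspa1a, Hspa1b and Hsph1.

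The DnaJ co-chaperones split between a few large increases and a majority without a call: 6 rose, 2 fell and 13 of 21 did not pass. Dnaja4 read 106 and 78.4 in Control and 3604 and 3545 in HS+LPS (log2 difference 5.24, SE 0.12, limma adjusted p = 7.08e-08), and its 3 tested probe sets gave 5.24 to 5.66. Dnajb1, the stress-inducible HSP40, went from 601 and 591 to 5916 and 5292 (3.22, SE 0.074). The groups did not overlap for either gene. Dnajb4 and Dnaja1 rose by 1.55 and 1.24 on the log2 scale, and Dnajb4's probe sets ranged from 0.0066 to 1.77. The 2 that fell were Dnaja3, of the mitochondria, from 168 and 205 to 85.4 and 98.6, and Dnajb14, of the endoplasmic reticulum, by 0.66.

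Small heat shock proteins and the BAG factors that release HSP70 from its clients rose in 5 of 13 cases. Bag3, which links HSP70 to autophagy, read 494 and 389 in Control and 2176 and 2376 in HS+LPS (log2 difference 2.37, SE 0.11, limma adjusted p = 7.4e-06). Hspb8, its partner, read 305 and 277 in Control and 1205 and 1406 in HS+LPS (2.15, SE 0.11); its 3 probe sets ranged from -0.082 to 2.31. Both genes were above Control in each culture. Hspb1, the small heat shock protein HSP25, read 2005 and 1139 in Control and 6097 and 5467 in HS+LPS (1.93, SE 0.18, adjusted p = 0.000447). Cryab, alphaB-crystallin, read 2418 and 755 in Control and 4283 and 3540.1 in HS+LPS (1.52, SE 0.29, adjusted p = 0.00988). The cultures started apart for Hspb1 and Cryab, and the 2 treated arrays were closer together than the 2 untreated ones. Bag4 was the member that fell, by 0.67 on the log2 scale.

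HSP90 and some of its co-chaperones rose by smaller steps. Hsp90aa1, the inducible cytosolic HSP90, read 3059 and 2647 in Control and 4812 and 4851 in HS+LPS (0.76, SE 0.077, limma adjusted p = 0.000657). Ahsa1, which stimulates the HSP90 ATPase, rose by 0.80, Stip1, which passes clients from HSP70 to HSP90, by 0.70 and Chordc1 by 0.62. These 4 of 14 tested genes rose, and the other 10 did not pass. Hsf2, a relative of HSF1, read 8.27 and 5.82 in Control and 8.96 and 10.5 in HS+LPS, close to the noise level (log2 difference 0.34, adjusted p = 0.607).

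**Figure D2:**
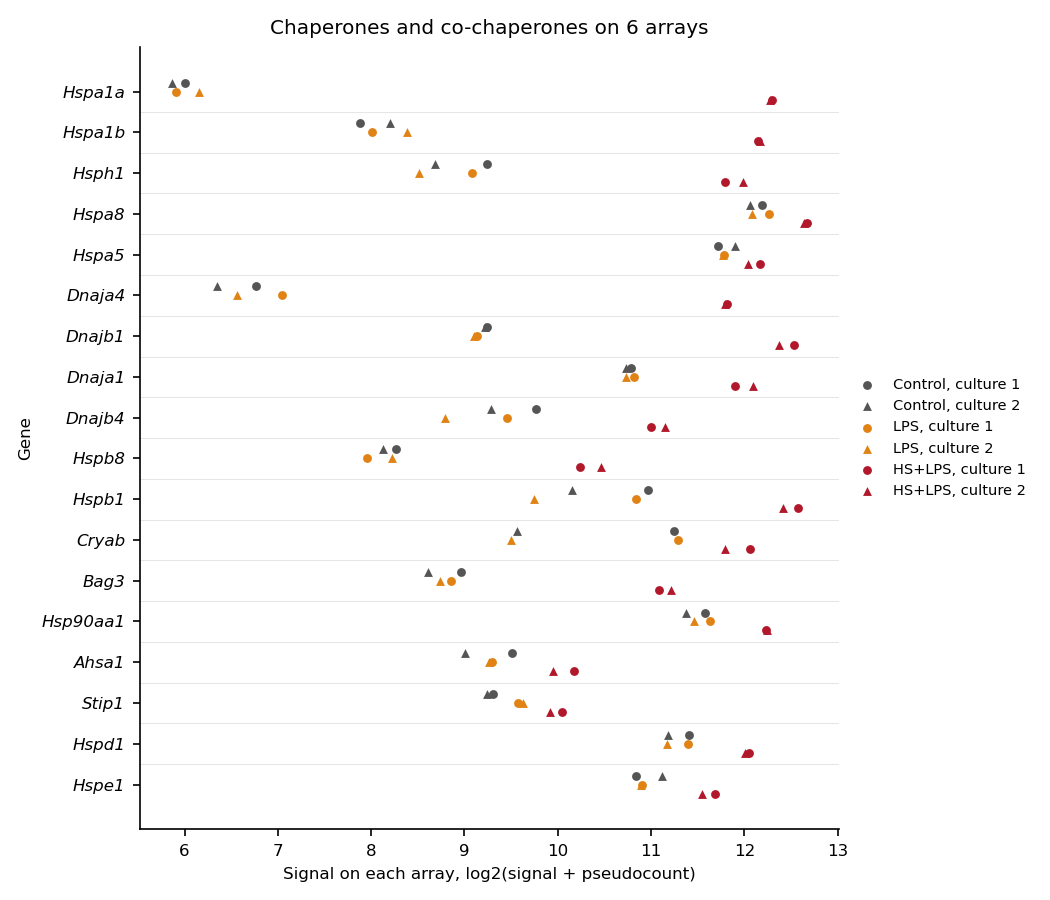
Signal of 18 chaperone and co-chaperone genes on each of the 6 arrays (log2(signal + pseudocount)); grey is Control, orange LPS and red HS+LPS, circles are culture 1 and triangles culture 2. The red symbols lie to the right of grey and orange for the inducible cytosolic genes such as Hspa1a and Dnaja4, and nearest to them for Hspa5 and Hspa8.

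In the mitochondria the chaperonin pair rose, and Clpx, Grpel2 and Htra2 fell. Hspd1, the HSP60 chaperonin, read 2705 and 2327 in Control and 4235 and 4127 in HS+LPS (0.74, SE 0.075, limma adjusted p = 0.000692). Hspe1, its HSP10 lid, read 1824 and 2215 in Control and 3282 and 2986 in HS+LPS (0.64, SE 0.098). The HS+LPS arrays were above both Control arrays for both genes. Of 11 tested mitochondrial chaperones and proteases, 2 rose and 3 fell. The protease subunit Clpx fell by 0.91, with a second probe set at 0.50, the nucleotide exchange factor Grpel2 by 0.50, and the protease Htra2 by 0.49.

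The other folding systems moved little. Limma called 0 of 13 subunits of the cytosolic chaperonin CCT and prefoldin, whose log2 differences lay between -0.098 and 0.23. At an unadjusted p under 0.05, 5 of them were higher, where 9.2% of all genes were higher and 22.6% lower. Among 18 endoplasmic reticulum chaperones, Dnajb9 and Hspa5 (BiP) rose by 0.49 and 0.29, and Sel1l, of the degradation machinery, fell by 0.43. Hspa5 passed narrowly (limma adjusted p = 0.0442) and lost its call when only Control and HS+LPS arrays were fitted. Of 27 proteasome genes, 3 rose, Psma6, Psmd1 and Psmb2, by 0.34, 0.29 and 0.28. Psmd1 and Psmb2 lost their calls with median centring. In the integrated stress response, which slows translation through phosphorylated eIF2alpha, the phosphatase subunit Ppp1r15a (GADD34) rose from 167 and 159 to 403 and 407 (1.29, SE 0.11, limma adjusted p = 0.000285). Ppp1r15b and Chac1 also rose, by 0.69 and 1.02. The pathway's transcription factor Ddit3 (CHOP) went the other way, from 542 and 708 to 301 and 203 (-1.31, SE 0.18), but its 2 probe sets disagreed, at -1.31 and 0.86. Atf4 fell by 0.41, and 18 of the 23 genes did not pass.

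Promoters of some raised chaperones are shown with their inverted repeats, since these are the letters that HSF1 is known to bind. All of those shown hold a match, which is not so for every raised chaperone. The bases are the 200 before the start site, from RefSeq on GRCm38.p6, 5′ to 3′ on the gene's strand. Capitals mark the full element of 3 units in Hspd1, which is GAA, any 2 bases, TTC, any 2 bases and GAA, on either strand. In the others they mark its pairs, GAANNTTC or TTCNNGAA.
Hspa1a (chr17:34972157-34972356, minus strand): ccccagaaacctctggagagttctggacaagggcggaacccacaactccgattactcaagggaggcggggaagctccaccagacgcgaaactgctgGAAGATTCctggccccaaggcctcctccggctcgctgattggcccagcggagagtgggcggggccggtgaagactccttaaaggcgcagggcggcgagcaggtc
Dnaja4 (chr9:54699359-54699558, plus strand): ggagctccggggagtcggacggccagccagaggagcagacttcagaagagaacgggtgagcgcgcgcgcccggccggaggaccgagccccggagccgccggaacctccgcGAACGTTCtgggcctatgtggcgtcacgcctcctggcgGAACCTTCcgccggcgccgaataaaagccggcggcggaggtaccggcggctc
Hsph1 (chr5:149636316-149636515, minus strand): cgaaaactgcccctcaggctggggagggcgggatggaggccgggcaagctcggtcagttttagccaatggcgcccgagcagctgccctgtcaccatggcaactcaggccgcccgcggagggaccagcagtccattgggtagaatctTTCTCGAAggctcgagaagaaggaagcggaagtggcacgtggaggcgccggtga
Hspb1 (chr5:135887719-135887918, plus strand): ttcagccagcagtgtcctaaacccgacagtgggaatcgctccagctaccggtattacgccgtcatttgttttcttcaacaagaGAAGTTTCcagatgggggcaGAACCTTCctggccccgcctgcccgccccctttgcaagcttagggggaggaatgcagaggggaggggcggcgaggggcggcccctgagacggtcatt
Hspd1 (chr1:55087933-55088132, minus strand): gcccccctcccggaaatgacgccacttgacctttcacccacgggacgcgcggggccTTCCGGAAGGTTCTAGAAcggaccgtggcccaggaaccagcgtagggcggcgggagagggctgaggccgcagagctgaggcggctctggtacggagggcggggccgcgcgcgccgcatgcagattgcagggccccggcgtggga

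The capitals in Hspd1 cover 2 overlapping full elements, and read on the other strand the same 18 bases, chr1:55088059-55088076, stand before Hspe1. The 2 genes thus share the element. The corresponding bases of Hspa1b differ from those of Hspa1a at 1 of 200 positions. Over the 250 bases before the start and both strands, the full element was found in 47 of 10405 tested genes with a promoter in the table (0.452%) and in 153 of all 32851 promoters (0.466%). It was in 4 of 521 genes called higher (0.768%), among them Hspd1, Hspe1 and Dnajb6, and 2 of 1283 called lower (0.156%). The pairs, searched after the full element was found in none of Hspa1a, Dnaja4, Hsph1 and Hspb1, are short and common: GAANNTTC was in 6.25% and TTCNNGAA in 7.06% of tested genes, against 6.72% and 8.06% of those called higher. Of tested HSP70 and HSP110 genes with a promoter, 2 of 9 held GAANNTTC and 1 of 9 TTCNNGAA. It was 3 of 19 for each pair among DnaJ genes, and 2 of 12 and 1 of 12 in the HSP90 list. Among small heat shock and BAG genes it was 2 of 10 and 0 of 10. Bag3, which rose, held neither pair. A match is a description of the letters only.

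Immediate early transcription factors formed the second group of large increases. Atf3, a repressor of the ATF family, read 25.8 and 31.7 in Control and 2071 and 2093 in HS+LPS (65.2-fold, log2 difference 6.03, SE 0.15, limma adjusted p = 8.08e-08). With LPS alone it read 22.3 and 34.7, which did not differ from Control past the threshold (-0.035, adjusted p = 0.948). Of 14 tested AP-1 and ATF3 genes 11 rose and 1 fell, with a median log2 difference of 1.11. Fosb read 2.41 and 6.89 in Control and 84.4 and 190.4 in HS+LPS (4.08, SE 0.49), and Junb 148 and 162 in Control and 611 and 773 in HS+LPS (2.13, SE 0.13). Fosb was at noise or just above it without heat, and both treated arrays were well above. Fos and Jun, which pair to form AP-1, rose by 1.75 and 1.14, and Maff, a small Maf protein, by 2.59. Batf, a lymphoid AP-1 partner, was the member that fell, from 28.5 and 30.7 to 10.5 and 14.4. Without the culture block Atf3 and Junb were called.

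Arc, a neuronal early gene that codes for a capsid-like protein, had the largest log2 difference of all genes tested. It read 2.40 and 1.52 in Control, 2.49 and 1.58 with LPS alone and 884 and 1040.5 in HS+LPS. The first 4 arrays were under the noise level, and the increase was at least 138-fold (log2 difference 7.50, SE 0.24, limma adjusted p = 7.16e-07). Nr4a1, an orphan nuclear receptor, read 98.4 and 74.6 in Control and 876 and 1306 in HS+LPS (3.59, SE 0.26), and Egr1, a zinc finger factor, 599 and 717 in Control and 2725 and 4195 in HS+LPS (2.36, SE 0.094). Both were above Control in each culture by a wide margin. Csrnp1, a nuclear protein, and Nr4a3 rose by 3.61 and 2.62. Of 23 tested early genes 15 rose and 1 fell (Ier5l, by 0.80). Myc read 192 and 108 in Control and 226 and 414 in HS+LPS and narrowly did not pass (adjusted p = 0.0513).

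The phosphatases and inhibitors that end MAP kinase signalling rose almost as a group, 15 of 17, with 1 lower and a median of 1.25. Dusp2 read 32.3 and 10.9 in Control and 239.6 and 452 in HS+LPS (3.88, SE 0.47, limma adjusted p = 0.00145). Dusp5, which acts on ERK in the nucleus, read 174 and 75.0 in Control and 903 and 1099.9 in HS+LPS (3.08, SE 0.28). The treated arrays did not overlap the untreated ones in either gene. Dusp4 and Dusp8 rose by 2.36 and 2.32. Dusp1, which acts on p38 and JNK, read 730.2 and 212 in Control and 1471 and 1572 in HS+LPS (1.94, SE 0.37). Dusp1 differed between the untreated cultures more than between the treated ones. Spry1, an inhibitor of receptor tyrosine kinase signalling, fell by 1.23, and Dusp7 did not pass (0.22). None of these 16 calls held without the culture block.

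Krüppel-like factors moved in both directions, 5 higher and 2 lower of 12. Klf5, Klf10 and Klf6 rose by 1.49, 1.42 and 1.35, and Klf4 by 0.38. Klf2, a factor of quiescent cells, read 64.9 and 100.3 in Control and 23.6 and 29.0 in HS+LPS (-1.51, SE 0.17, limma adjusted p = 0.00114). Klf12 fell by 1.14.

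**Figure D3:**
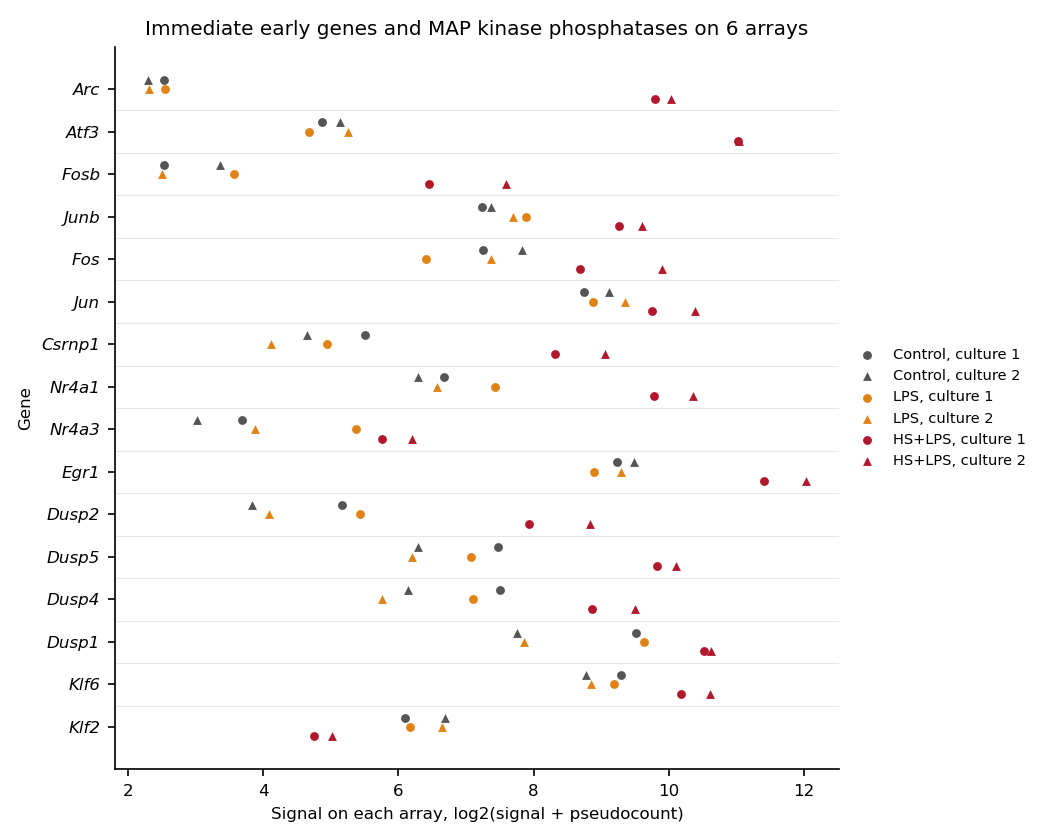
Signal of 16 immediate early, MAP kinase phosphatase and Krüppel-like genes on each array (log2(signal + pseudocount)), with groups and cultures as in the plot of chaperones. Control and LPS symbols lie together, the HS+LPS symbols lie to the right of them from Arc to Klf6, and Klf2 is the gene in which they lie to the left.

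The letters that AP-1 binds, TGANTCA, were counted in the same 250 bases. They were in 610 of 10405 tested genes with a promoter (5.86%), in 39 of 521 called higher (7.49%) and in 61 of 1283 called lower (4.75%). Among genes that rose by more than 1 on the log2 scale they were in 27 of 179 (15.1%). Il11, Lif, P2rx7 and Bag3 were among those holding it. The cAMP response element TGACGTCA was in 2.92% of tested genes and in 14 of the same 179 (7.82%). Of those 179, 0 held the full heat shock element. GAANNTTC was in 7.26% and TTCNNGAA in 7.82% of them, against 6.25% and 7.06% of tested genes. The NF-kB motif was in 9.5% of them, against 5.55%. These shares were not tested.

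Inflammatory genes did not move as 1 group. Some were raised in HS+LPS but less than with LPS, some that LPS raised did not pass against Control or fell, and a few were raised above LPS. Of 18 tested chemokines, 5 rose and 1 fell in HS+LPS against Control, with a median of 0.049. In LPS against Control, where 2.06% of all genes rose and 0.72% fell, 17 of the 18 rose, with a median of 2.68. The comparisons share the Control arrays. In HS+LPS against LPS, which uses the arrays of both treatments, 6.32% of all genes rose and 12.6% fell.

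Cxcl2, a neutrophil chemokine, read 0.285 and 7.34 in Control, 1189.8 and 886 with LPS and 61.6 and 110.3 in HS+LPS. The HS+LPS arrays lay above Control (3.78, SE 0.37, limma adjusted p = 0.000552) and below LPS (log2 difference -3.58, adjusted p = 0.000404). Cxcl10, a T cell chemokine, read 11.2 and 7.85 in Control, 591 and 428 with LPS and 35.5 and 46.6 in HS+LPS (1.78 against Control and -3.52 against LPS). Cxcl1, another neutrophil chemokine, read 208 and 703 in Control, 3689.6 and 3646 with LPS and 767 and 1361 in HS+LPS (1.41 and -1.84). The order Control, HS+LPS, LPS held in both cultures for these genes. Ccl5 read 2.69 and 10.2 in Control, 555 and 712 with LPS and 9.26 and 21.0 in HS+LPS (0.95 against Control, adjusted p = 0.0243). Ccl5 in HS+LPS overlapped its Control values across cultures. Its call was lost when only Control and HS+LPS arrays were fitted. Ccl2, the monocyte chemokine, rose by 0.36 in HS+LPS, against 1.64 with LPS, and Ccl7 was the member that fell, by 0.41.

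Among 16 tested cytokines 5 rose and 1 fell. Il11, of the IL-6 family, read 49.8 and 17.2 in Control, 74.4 and 25.8 with LPS and 527 and 344 in HS+LPS (3.70, SE 0.20, limma adjusted p = 2.4e-05). LPS alone did not pass for Il11 (0.53, adjusted p = 0.26), and HS+LPS exceeded LPS by 3.17 (adjusted p = 3.75e-05). Lif, of the same family, read 89.3 and 35.5 in Control, 607 and 185 with LPS and 599 and 367 in HS+LPS. It rose in HS+LPS by 2.98 and with LPS by 2.50, and the difference between the treatments did not pass (0.48, adjusted p = 0.12). Il6 read 271 and 72.3 in Control, 1832 and 930.5 with LPS and 714 and 816 in HS+LPS (2.41 against Control, adjusted p = 0.00322; -0.77 against LPS, adjusted p = 0.166). So the 3 family members were all above Control after heat and LPS, and Il11 was the one above LPS. Csf2 (GM-CSF) rose by 1.45, from under the noise level, or at least 1.99-fold (limma adjusted p = 0.0335). It lost its call when only Control and HS+LPS arrays were fitted.

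Other mediators that LPS induced did not pass in HS+LPS against Control. Tnf, the early inflammatory cytokine, read 1.07 and 1.44 in Control, 47.5 and 31.1 with LPS and 1.77 and 2.46 in HS+LPS. Tnf in HS+LPS was under the noise level on both arrays, as in Control, and differed from LPS by -2.94 (limma adjusted p = 0.00231). Il1b read 15.3 and 15.5 in Control, 99.8 and 67.3 with LPS and 8.76 and 13.6 in HS+LPS (-0.39 against Control, adjusted p = 0.411). Nos2, the inducible nitric oxide synthase, read 1.14 and 1.04 in Control, 62.4 and 73.1 with LPS and 0.817 and 0.948 in HS+LPS, and Acod1, which makes itaconate, 0.438 and 1.09 in Control, 138 and 60.1 with LPS and 0.735 and 1.43 in HS+LPS. Both enzymes were under the noise level on the 4 arrays of Control and HS+LPS and above it on the LPS arrays. Vcam1, an adhesion molecule, read 430.2 and 672 in Control, 2152 and 1836 with LPS and 333 and 559 in HS+LPS (-0.32, adjusted p = 0.312). The 95% interval of the HS+LPS against Control difference was -0.71 to 1.20 for Tnf and -0.76 to 0.13 for Vcam1. Csf3 (G-CSF) did not pass either (1.01, adjusted p = 0.146).

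A few effectors were raised after heat and LPS. Ptgs2, the inducible cyclooxygenase, read 1223 and 309 in Control, 2610.2 and 830.2 with LPS and 3001 and 2626 in HS+LPS (2.18, SE 0.33, limma adjusted p = 0.00355). Culture 1 was higher than culture 2 in Control and LPS, and the HS+LPS arrays were close. The difference from LPS did not pass (0.93, adjusted p = 0.0817). Tnfaip6, a hyaluronan-binding protein, rose by 1.75 and Plaur, the urokinase receptor, by 0.99, and both were above LPS (1.11 and 0.81). Cebpb, a transcription factor of the acute phase, rose by 0.91 against Control, and its difference from LPS of 0.21 did not pass (adjusted p = 0.201). Icam1 went the other way, from 247 and 198 in Control to 153 and 117 in HS+LPS, with 1343 and 1089.9 under LPS. It was lower than Control in each culture (-0.71, SE 0.087, adjusted p = 0.00152). Of 26 tested effectors 5 rose and 2 fell, and LPS alone raised 21.

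Among the sensors of LPS, 2 rose and 4 fell of 18. Tlr2, a receptor of bacterial lipopeptides, read 134 and 109 in Control, 1142 and 807 with LPS and 60.7 and 46.2 in HS+LPS (-1.15, SE 0.11, limma adjusted p = 0.000469). Cd14, the co-receptor that hands LPS to Toll-like receptor 4, read 58.0 and 64.2 in Control, 118 and 93.2 with LPS and 35.0 and 34.9 in HS+LPS (-0.75, adjusted p = 0.0214). Both were below Control in HS+LPS on each array. Tlr4 rose by 0.86, with 3 probe sets between 0.038 and 0.86, and the adaptor Traf6 by 0.72. The others that fell were Irak2 and Myd88, by 0.53 and 0.33.

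Several feedback regulators of NF-kB rose above Control. Zc3h12a, an RNase that destroys inflammatory mRNAs, read 46.3 and 47.4 in Control, 411 and 364 with LPS and 322 and 365 in HS+LPS (2.79, SE 0.12, limma adjusted p = 3.91e-06). Nfkbiz, a nuclear IkB protein, read 417 and 439.5 in Control, 1239 and 1183 with LPS and 2082 and 2235 in HS+LPS (2.32, SE 0.077). Zc3h12a did not differ between the treatments past the threshold (-0.17, adjusted p = 0.343), and Nfkbiz was higher in HS+LPS than with LPS (0.83, adjusted p = 0.000247). Nfkbia (IkBalpha) and the deubiquitinase Tnfaip3 (A20) rose by 0.90 and 1.13, and Tnfaip3 was lower than with LPS (-1.12). Nfkbie (IkBepsilon) read 28.4 and 64.8 in Control, 470.2 and 317 with LPS and 12.5 and 24.7 in HS+LPS (-1.14, adjusted p = 0.0489). Birc2, a ubiquitin ligase, fell by 1.13, and so did Ikbke, by 0.81. In all 4 of 23 rose and 3 fell, and LPS alone raised 13. The share that fell was near that over all genes, 12.1%.

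Interferon-induced genes fell more often than they rose. Of 30 antiviral effectors 1 rose and 9 fell, with a median of -0.21, and LPS alone raised 18. Rtp4 read 134 and 107 in Control, 470.0 and 331 with LPS and 41.6 and 36.2 in HS+LPS (-1.55, SE 0.13, limma adjusted p = 0.000276). Ifit1, which binds viral RNA ends, read 63.8 and 42.4 in Control, 488 and 325 with LPS and 31.9 and 18.5 in HS+LPS (-1.0, SE 0.14, adjusted p = 0.00257). Both HS+LPS arrays lay below both Control arrays in each gene. Parp14 and Ifit3 fell by 0.90 and 0.67, and Isg20 was the member that rose, by 0.66. Parp14 lost its call when only Control and HS+LPS arrays were fitted. Rsad2 (viperin) read 17.4 and 16.3 in Control, 537 and 184 with LPS and 10.8 and 7.16 in HS+LPS and did not pass against Control (-0.73, adjusted p = 0.157).

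Of 20 interferon regulatory and STAT genes 1 rose, which is near the share over all genes, and 5 fell. Stat2, part of the interferon response complex, read 60.1 and 59.2 in Control and 24.97 and 20.4 in HS+LPS (-1.28, SE 0.18, limma adjusted p = 0.00256). Irf3, which is activated by Toll-like receptor 4, fell by 0.92 and Irf1 by 0.71. Irf7 did not pass (-0.35, adjusted p = 0.38). Cish, a feedback inhibitor of STAT5, rose from 84.3 and 79.96 to 233 and 270.0. Of 20 immunity-related GTPases and antigen processing genes 2 passed, both lower, Irgm1 and Irgm2, by 1.24 and 1.09, and LPS alone raised 13.

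**Figure D4:**
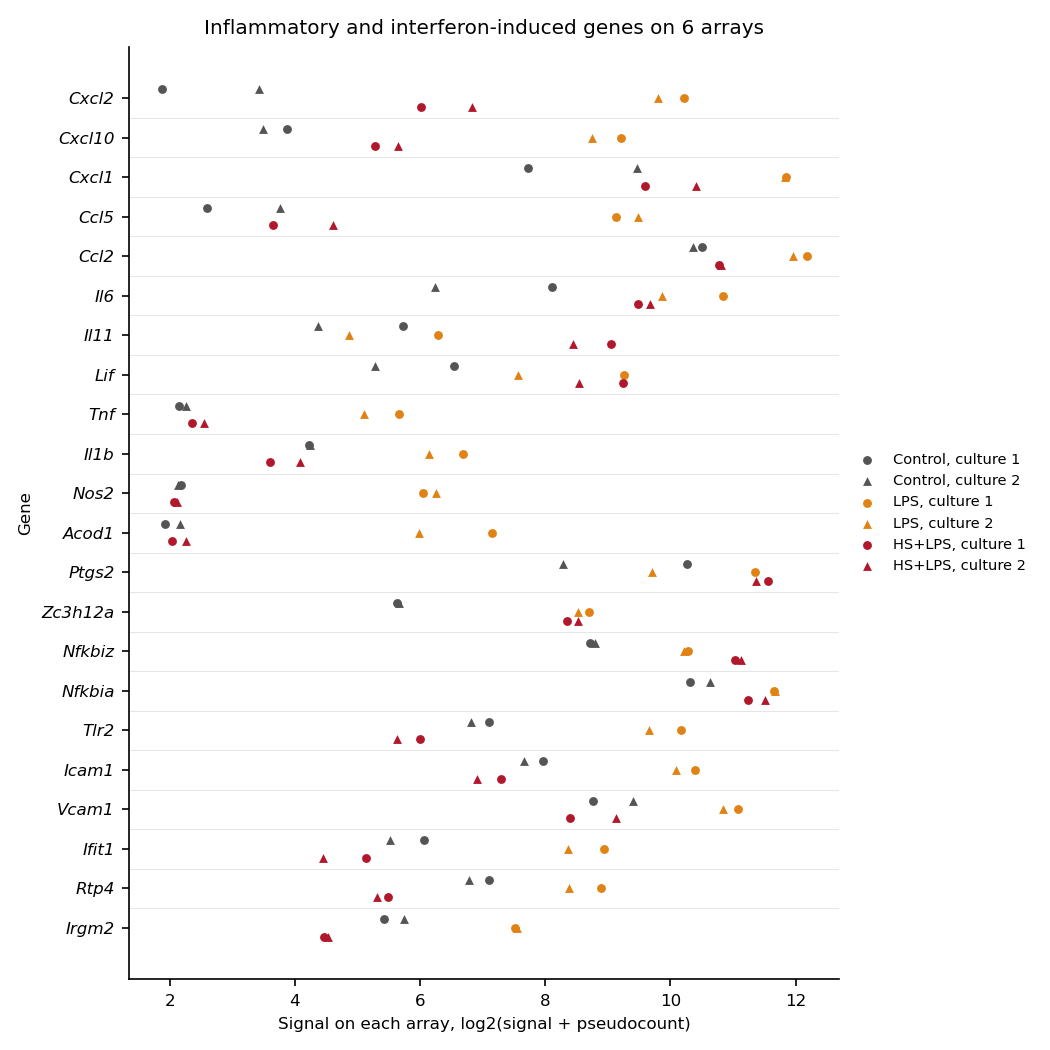
Signal of 22 inflammatory and interferon-induced genes on each array (log2(signal + pseudocount)), with groups and cultures as in the plot of chaperones. Red HS+LPS symbols lie between grey and orange for Cxcl2, Cxcl10 and Cxcl1, with grey for Tnf, Nos2 and Acod1, to the left of grey for Tlr2, Icam1, Ifit1, Rtp4 and Irgm2, and to the right of orange for Il11 and Nfkbiz.

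Promoters of 3 of these genes are printed because they hold the letters of the factors that LPS activates. Capitals mark NF-kB motifs in Cxcl10 and Il6, and interferon-stimulated response elements in Ifit1, which are GAAA, any 2 bases and GAAA on either strand. The source and window are those given for the chaperones.
Cxcl10 (chr5:92348890-92349089, minus strand): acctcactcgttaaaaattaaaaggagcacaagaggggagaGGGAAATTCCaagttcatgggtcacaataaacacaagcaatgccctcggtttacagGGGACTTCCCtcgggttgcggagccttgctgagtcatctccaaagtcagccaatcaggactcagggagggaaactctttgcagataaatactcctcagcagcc
Il6 (chr5:30012914-30013113, plus strand): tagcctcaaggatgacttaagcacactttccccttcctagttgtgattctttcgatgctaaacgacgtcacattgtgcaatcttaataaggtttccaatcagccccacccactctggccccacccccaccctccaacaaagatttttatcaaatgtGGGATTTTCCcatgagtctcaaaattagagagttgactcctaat
Ifit1 (chr19:34640689-34640888, plus strand): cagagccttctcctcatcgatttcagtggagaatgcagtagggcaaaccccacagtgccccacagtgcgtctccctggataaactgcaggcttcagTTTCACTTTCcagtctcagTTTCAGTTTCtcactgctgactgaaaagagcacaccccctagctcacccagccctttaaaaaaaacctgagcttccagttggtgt
In HS+LPS these genes were raised less than with LPS (Cxcl10), raised (Il6) and lowered (Ifit1). The NF-kB motif was in 6 of 10 chemokines with a promoter in the table and in 7 of 20 NF-kB genes, against 5.55% of tested genes, and the interferon element in 7 of 22 antiviral effectors against 3.06%. No share was tested.

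Stress programs other than folding were partly raised. Hmox1, heme oxygenase, read 1024 and 446 in Control, 1599 and 804 with LPS and 2972 and 2142 in HS+LPS (1.89, SE 0.14, limma adjusted p = 0.000166). Srxn1, sulfiredoxin, read 280.1 and 238 in Control and 786 and 789.7 in HS+LPS (1.60, SE 0.10). Both were above Control in each culture. Osgin1 and the thioredoxin reductase Txnrd1 rose by 1.78 and 0.92, and their regulator Nfe2l2 (NRF2) fell by 0.34; 5 of 17 genes of that list rose and 1 fell. Of 18 p53 targets and GADD45 genes 6 rose and 2 fell. Mdm2, the p53 ubiquitin ligase, read 903 and 774 in Control and 2072 and 2196 in HS+LPS (1.35, SE 0.087), and Gadd45b, Plk2 and Pmaip1 rose by 1.52, 1.10 and 1.03. Cdkn1a (p21), the best known p53 target, did not pass (0.17, adjusted p = 0.229). In the BCL2 family Bcl2l11 (BIM), Cflar and Mcl1 rose by 0.86, 0.63 and 0.43, and Bid fell by 0.64.

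Secreted growth factors rose in 8 of 22 cases and fell in 1. Pgf, placental growth factor, read 8.05 and 23.8 in Control and 166 and 225 in HS+LPS (3.48, SE 0.25, limma adjusted p = 0.00012). Vegfa, its angiogenic relative, read 196 and 126 in Control and 690.0 and 698 in HS+LPS (2.12, SE 0.14). LPS alone did not pass for either (-0.21 and 0.33). Pdgfb read 24.7 and 8.16 in Control and 171 and 169 in HS+LPS (3.27, SE 0.34). Hbegf, an EGF receptor ligand, read 1154 and 189.7 in Control and 3135 and 2448 in HS+LPS (2.55, SE 0.44). Hbegf differed between the untreated cultures by more than any other gene of this group named here, and it went up by 1.44 on the log2 scale in the first of them and by 3.67 in the other. Bmp4 was the member that fell, by 1.10.

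Receptors for such factors fell more often than they rose, 6 against 2 of 20. Pdgfrb read 1554 and 1475 in Control and 883 and 911 in HS+LPS (-0.75, SE 0.072, limma adjusted p = 0.000552). Pdgfra read 302 and 1036 in Control and 117 and 573 in HS+LPS (-1.10, SE 0.18). Pdgfra was several times higher in culture 2 than in culture 1 in both groups and fell within each; its 3 probe sets ranged from -1.10 to -0.036. The orphan receptor Ror1 fell by 1.16, and the VEGF receptor Flt1 rose by 1.25, against 1.17 with LPS.

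Genes of TGF-beta and BMP signalling moved both ways, 7 higher and 5 lower of 26. Smad7, the inhibitory SMAD, read 216 and 103 in Control and 442 and 443 in HS+LPS (1.55, SE 0.23, limma adjusted p = 0.00322). Smad1, Id2 and the repressor Tgif1 rose by 1.11, 1.10 and 1.04. Of 24 mesenchymal transcription factors 6 rose and 5 fell. Snai2 (Slug), a repressor of epithelial genes, read 1525 and 1384 in Control, 1059.7 and 1046 with LPS and 561 and 594 in HS+LPS (-1.33, SE 0.08, adjusted p = 3.98e-05). The 3 groups did not overlap, and LPS alone also lowered it (-0.46, adjusted p = 0.0176). Sox9, a factor of cartilage, Sox11 and Foxf1 rose by 1.98, 1.21 and 1.18. Sox9 is also among the lineage markers checked above.

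Cholesterol synthesis and the cell cycle held more decreases than increases. Of 20 genes of cholesterol synthesis and uptake, 11 were called, all lower, with a median of -0.41. Lss, lanosterol synthase, read 116 and 301 in Control and 55.8 and 146 in HS+LPS (-1.02, SE 0.14, limma adjusted p = 0.0024). Sqle, squalene epoxidase, read 629.6 and 1083 in Control and 345 and 597 in HS+LPS (-0.86, SE 0.085). Both were lower in each culture, although culture 2 started higher and the groups overlapped for Lss. Hsd17b7 and Mvd fell by 0.74 and 0.72. Of 34 cell cycle and replication genes 1 rose and 8 fell, with a median of -0.16. The mitotic kinases Plk1 and Cdk1 fell by 0.86 and 0.69 and cyclin Ccna2 by 0.67, and Cdt1, which licenses replication origins, rose by 0.75. Cyclin D1, Ccnd1, did not pass (0.007, adjusted p = 0.962).

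The remaining programs moved less or in both directions. Of 30 collagen and matrix genes 2 rose, Col4a1 and Tnc, by 0.36 and 0.31, and limma called 0 of 15 ribosomal protein genes, with 1 higher at an unadjusted p under 0.05 and log2 differences of 0.029 to 0.21. The cytoskeletal reference Actb read 5633 and 5939 in Control and 5983 and 5302 in HS+LPS (-0.038, adjusted p = 0.844). Of 21 contractile genes Actg2 rose by 0.29 and Tgfb1i1 fell by 0.55. Actg2 passed narrowly (limma adjusted p = 0.0463) and lost its call when only Control and HS+LPS arrays were fitted. In glycolysis and hypoxia Hk2 rose by 0.43 beside Vegfa, and Hif1a and Bnip3 fell by 0.29 and 0.41. Splicing regulators had 3 higher, among them Dyrk1a (0.66), and 3 lower, Clk2, Srsf5 and Srsf3 (-0.54, -0.48 and -0.44), of 28. Of 17 clock genes 6 passed, all higher, led by Bhlhe40, a repressor that read 414 and 347 in Control and 1184 and 1094 in HS+LPS (1.58), with Per1, Nr1d1 and Arntl at 0.80, 0.61 and 0.54. Of 18 regulators of RNA decay 6 rose, with Zfp36 (tristetraprolin) at 1.09 and Zc3h12c at 0.65 after Zc3h12a, and 3 fell. One of those, Rc3h2 (roquin-2), fell by 0.65, but its 5 probe sets ranged from -0.65 to 0.71.

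Genes of the cornified envelope of skin and of hair keratin scaffolds were among the largest increases. Lce1f, a late cornified envelope gene, read 17.3 and 4.77 in Control and 474 and 262 in HS+LPS (4.78, SE 0.24, limma adjusted p = 1.25e-05). Sprr1a read 18.9 and 6.02 in Control and 165 and 237 in HS+LPS (3.80, SE 0.37). Krtap1-5 read 8.39 and 6.43 in Control and 90.4 and 97.8 in HS+LPS (3.18, SE 0.40). All 3 read under 20 on both Control arrays and far above that on both HS+LPS arrays. Krtap4-16 rose at least 5.94-fold, and Ivl, involucrin, by 1.56, with groups that overlapped between cultures. The other 9 of 14 tested members did not pass. Beside them, 6 of 13 epithelial and keratinocyte markers were under the filter, Cdh1, Krt14, Krt15, Trp63, Cldn7 and Esrp1. Of the 7 tested ones 6 had positive and 1 negative log2 differences, between -1.22 and 1.15, with a median of 0.82 against 0.81 for the cornified and keratin-associated list. Krt19 was called higher, and at an unadjusted p under 0.05, 4 were higher and 1 lower. The summed signal of those 7 was 292 and 136 in Control and 399 and 255 in HS+LPS. The part of epithelial cells in this result was not tested.

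Several genes outside the lists were also among the 30 largest increases. P2rx7, an ATP-gated channel, read 8.06 and 7.32 in Control, 10.0 and 8.54 with LPS and 238 and 243 in HS+LPS (4.46, SE 0.22, limma adjusted p = 1.21e-05). Serpinb2, a plasminogen activator inhibitor, read 70.9 and 20.9 in Control, 285 and 193 with LPS and 287 and 633 in HS+LPS, and HS+LPS did not pass against LPS (0.85, adjusted p = 0.25). Thus P2rx7 was high in HS+LPS alone, and Serpinb2 after both treatments. Tent5c, a poly(A) polymerase, and Efr3b rose by 2.95 and 2.69. Xirp1, an actin-binding repeat protein of muscle, rose at least 7.31-fold from under the noise level, and so did G530011O06Rik, Gm11563 and Gm13889, by at least 14.6-fold, 10.2-fold and 6.45-fold.

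The 30 largest decreases, from 1.64 to 2.60 on the log2 scale, were smaller than the largest increases. Rspo2, a secreted activator of Wnt signalling, read 871 and 621 in Control and 195 and 133 in HS+LPS (-2.17, SE 0.11, limma adjusted p = 1.25e-05), with a second probe set at -0.47. Hexim1, which holds the elongation kinase P-TEFb inactive, read 273 and 363 in Control and 89.7 and 59.3 in HS+LPS (-2.06, SE 0.21). Cemip, a hyaluronan-degrading protein, read 853 and 524 in Control and 266 and 153 in HS+LPS (-1.71, SE 0.083, adjusted p = 1.11e-05). All were lower in both cultures. LPS alone gave -0.13, -0.14 and -0.40, of which the last passed. Adamts1, a matrix protease, Lurap1l and Ttc30b, a part of the intraflagellar transport machinery, fell by 1.66, 1.77 and 2.21. The unnamed transcript 9330133O14Rik had the largest fall, from 24.1 and 35.0 to 1.65 and 2.34, or at least 3.99-fold. Chromatin and transcription genes in the same 30 were Prdm16, the histone gene H2aw, Scrt1, Ikzf3, Zfp128 and Zfp229, at -1.65, -1.65, -2.12, -1.67, -1.74 and -1.90. Thumpd2, a putative tRNA methyltransferase, and Prorp and Mterf2, of mitochondrial RNA processing and transcription, were at -1.66, -2.01 and -1.71. The rest, Znrd1as, Zc3h6, Mfsd4b4, Fam53b, Iqcc, Hdhd3, Fam184a, Setmar, Hcrtr2, Art1, Vpreb1, Jmjd4 and AU041133, fell by 1.64 to 2.15. Iqcc and Vpreb1 were near the threshold (limma adjusted p = 0.0363 and 0.0383). With the block kept, both lost their calls with no filter, and Iqcc also with a pseudocount of 1 and with quantile normalization. Beyond the rule that chose the named genes, Hspa4l, Hspa14, Dnaja3, Dnajb14, Bag4, Htra2, Atf4, Batf, Ier5l, Spry1, Dusp7, Klf12, Ccl7, Irak2, Myd88, Ikbke, Isg20, Nfe2l2, Bmp4 and Ivl were named after their values were seen, to complete small counts.

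**Figure D5:**
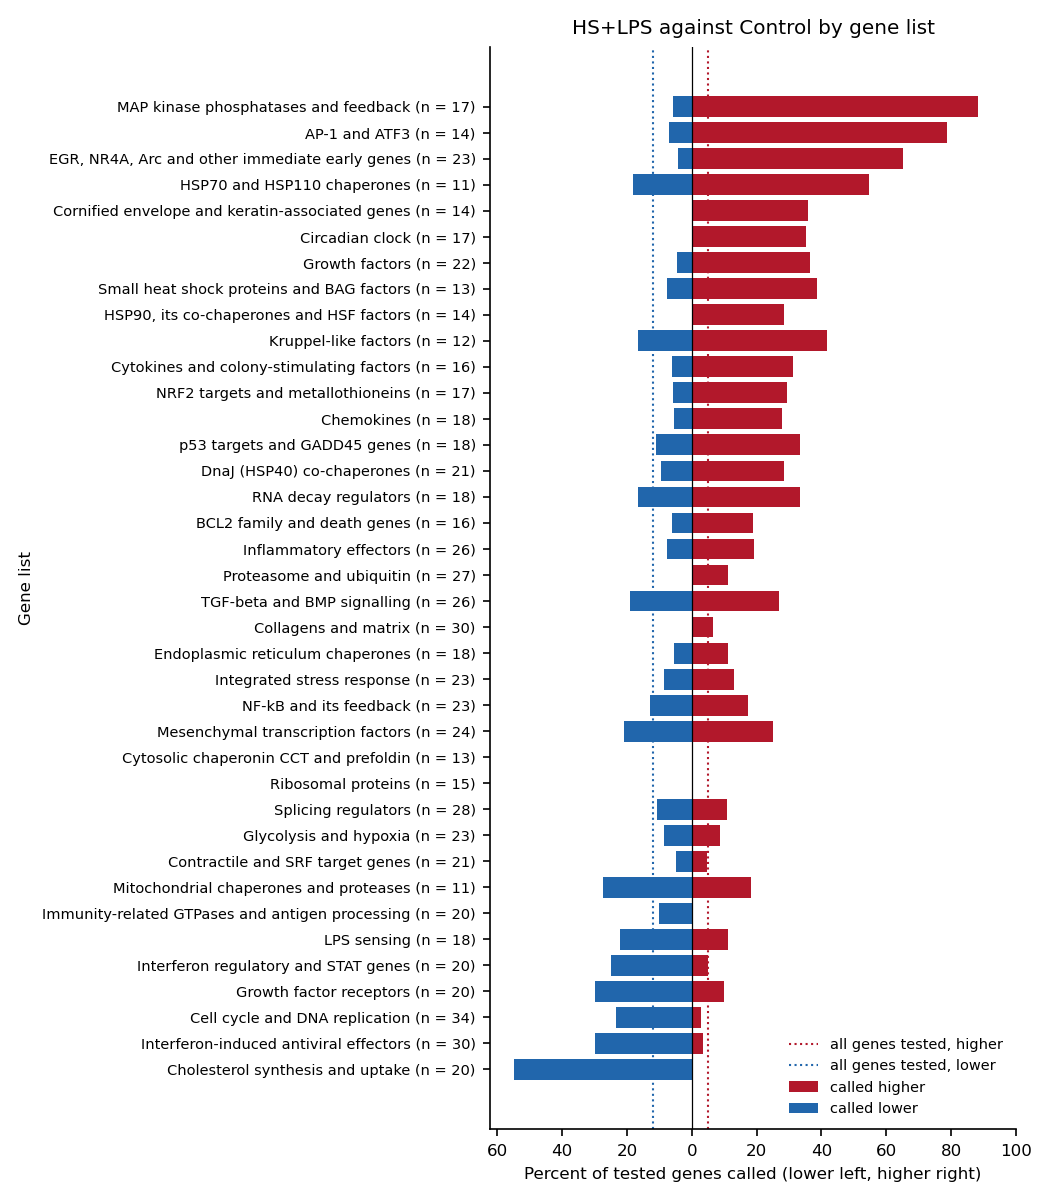
Share of the tested genes of each of 38 gene lists called higher (red, to the right) or lower (blue, to the left) in HS+LPS against Control, in percent, with n the genes tested. Dotted lines mark the shares over all genes, 5.09% and 12.1%; the MAP kinase phosphatases, AP-1 and early genes reach farthest to the right and cholesterol synthesis farthest to the left.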

How the data were processed

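The 6 arrays (Affymetrix Mouse Genome 430 2.0, labelled from 1 μg of RNA) came as a deposited table of linear intensities. Each array's trimmed mean was 100.001, as it would be after scaling to a common level, and changes are then relative to the average gene; the software and any scaling are not given in the sources used here. The intensities were used unscaled further, as log2(intensity + 3.37), the pseudocount being their 25th percentile. Of 45101 probe sets, 64 controls were left out, and 27022 passed a filter at the 40th percentile of mean signal. Genes with 1 symbol were represented by their brightest probe set (12917 genes).

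All 6 arrays were fitted with limma 3.58.1 (R 4.3.3) by group with culture as a block (lmFit, eBayes with trend), and p-values were adjusted by the Benjamini-Hochberg method. Labels give cultures with 1 number the same embryo, and deviations from group means correlated within a number at 0.57, 0.62 and 0.54 for the 3 pairs of groups. In simulated data for HS+LPS against Control, the fit recovered 71% of genes changed by 1 and 94% changed by 2 on the log2 scale. It made 16 false calls of 181. The fit without the block recovered 68% and 97%, with 13 false calls of 178. The simulated noise was independent and drawn at the fit's own spread. It therefore cannot show whether the block or the spread model suits these arrays. Members and lists were chosen with earlier results of these data known. The text names the 30 largest calls in each direction, the 4 largest in each list and a set fixed whatever the result.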

Additional observations from a re-analysis of the deposited data

Results flagged for a closer look

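Probe sets that do not carry exactly 1 gene symbol were outside the gene comparison. When the same model was fitted to all probe sets, 129 of 3397 such probe sets were called higher (3.8%) and 137 lower (4.03%) in HS+LPS against Control. Of the 23625 probe sets with 1 symbol in the same fit, 4.71% were called higher and 8.28% lower, so neither share was above that of named genes. Among those above the noise level on the arrays of both groups, the largest increase was that of probe set 1421134_at, which has no symbol in the platform table. It read 12.4 and 8.08 in Control, 12.5 and 8.03 with LPS and 58.0 and 94.7 in HS+LPS (log2 difference 2.53, SE 0.33, limma adjusted p = 0.00221). The 129 probe sets and this one are given because they are signals above the untreated arrays in data that the gene comparison did not use.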

How the results depend on the processing

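Counts are given as genes higher and lower in HS+LPS against Control, in LPS against Control and in HS+LPS against LPS, in that order. With the culture block they were 658 and 1561, 266 and 93, and 816 and 1627. With no replicate block they were 22 and 1, 19 and 0, and 66 and 107; the 0 was 219 at an unadjusted p under 0.05. With no intensity trend they were 14 and 4, 11 and 0 (863 unadjusted), and 131 and 312. With no block and median centring, an alternative chosen after seeing the data like the next, they were 51 and 8, 25 and 0 (156 unadjusted), and 62 and 79. With no block and quantile normalization they were 20 and 1, 18 and 0 (226 unadjusted), and 64 and 85. LPS lowered 47 genes with no filter and 144 with median centring. Leaving out 1 array at a time gave 269 to 832 higher and 285 to 2062 lower in HS+LPS against Control, 147 to 573 and 16 to 434 in LPS against Control, and 275 to 908 and 508 to 2007 in HS+LPS against LPS. In the first of these the Control arrays gave the lowest counts, 269 and 285 without culture 2 and 454 and 606 without culture 1, and the share of higher genes among calls went from 29.7% to 48.6% and 42.8%. Without HS+LPS of culture 1 it was 832 and 2062, and without HS+LPS of culture 2 it was 476 and 1062. An arm left with 1 array is assumed to vary like the others. Rc3h2 reversed to 0.12 with the mean of its probe sets. In that setting Clpx, Grpel2, Sel1l, Ddit3, Tlr4, Traf6, Dyrk1a, Srsf3, Tnc, Actg2, Ror1, Foxf1, Bid, Arntl and Des lost their calls. In HS+LPS against Control, pseudocounts of 1 and 16, other filters, median centring, quantile normalization, the mean of probe sets, leaving out cross-hybridising probe sets and fitting the 4 arrays alone gave 531 to 687 higher and 1096 to 1625 lower. Of 185 named genes called in HS+LPS against Control, 184 kept their sign in every setting, and 20 passed without the block. With the block, 15 kept their calls under every alternative of pseudocount, filter, scaling, probe set, arrays and spread model. Fits that left out 1 array were not counted there. Why the calls differ between settings was not tested.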

Other observations

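Genes whose symbol is Zfp and a number, mostly zinc finger proteins, were looked at after their values were seen. Of 296 tested, 13 rose (4.39%) and 69 fell (23.3%) in HS+LPS against Control, with a median log2 difference of -0.39, against 5.09%, 12.1% and -0.095 over all genes. The larger of these falls in the report were Zfp229, from 47.9 and 45.9 in Control to 8.51 and 11.8 in HS+LPS, and Zfp128, from 54.1 and 52.0 to 12.1 and 15.0. The direction of calls also differed by signal. Of 3206 genes with a mean Control signal under 30, 100 rose and 54 fell, and of 3489 genes between 100 and 300, 216 rose and 694 fell.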
